A study of Mus musculus with 9 samples.

Results

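The Notch receptors, ligands and targets described here were 10 genes picked by name from the 23337 genes of the count table. They were the receptors Notch1, Notch2, Notch3 and Notch4, the ligands Jag1 and Jag2, and the target genes Hes1, Hey1, Hey2 and Heyl. The study compared isoforms of the transcription factor C/EBPβ that are translated from the same mRNA, a long activating form (LAP) and the short form LIP, which keeps the DNA-binding domain and lacks the activation domains. Messenger RNA was sequenced from immortalised mouse embryonic fibroblasts (MEFs) of mixed C57BL/6 and 129 background in which Cebpb was knocked out. These Cebpb-ko cells were stably transfected with a plasmid for rat LAP, a plasmid for rat LIP or the empty vector (EV) and kept under Zeocin selection, so that all groups carried the knockout and none received both forms. There were 3 libraries per group, 9 in all. The sources used here do not say whether a line was a clone or a pool, nor whether the libraries came from separate cultures or transfections. The p-values therefore measure the spread between these libraries, which may be technical.

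Notch receptors are membrane proteins that are activated by ligands of the Jagged and Delta-like families on a neighbouring cell. Binding exposes the receptor to cleavage by an ADAM protease and then by γ-secretase, and the freed intracellular domain enters the nucleus, where it joins the DNA-binding protein RBPJ and a Mastermind-like coactivator to switch on target genes such as Hes1 and the Hey genes. The HES and HEY proteins are transcriptional repressors, and in fibroblasts and other mesenchymal cells the pathway is known for its part in differentiation and matrix production.

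Windows ran from 250 bases before to 50 after an annotated transcript start. They were matched in RefSeq's GRCm38.p6 annotation for 7 of the 10 genes (all but Hes1, Hey1 and Heyl). The windows of Jag2 and Hey2 are shown because Jag2 was the member whose LIP libraries lay apart from the others and Hey2 the one with a match to the RBPJ motif. They are written 5′ to 3′ on the gene's strand, with motif matches in capitals. The Jag2 window was chr12:112929446-112929745 and that of Hey2 was chr10:30842734-30843033, both on the minus strand of GRCm38.p6. The Jag2 window lay wholly inside the gene, whose outermost start on this strand is at 112929812. The sequence before that outermost start of Jag2 was therefore not searched.
Jag2: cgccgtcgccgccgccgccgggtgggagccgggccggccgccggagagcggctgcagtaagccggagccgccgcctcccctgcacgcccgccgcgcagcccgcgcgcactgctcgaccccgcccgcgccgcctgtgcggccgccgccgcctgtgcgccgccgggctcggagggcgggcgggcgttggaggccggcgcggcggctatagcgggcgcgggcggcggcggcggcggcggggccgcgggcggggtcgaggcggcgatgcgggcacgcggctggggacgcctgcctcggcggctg
Hey2: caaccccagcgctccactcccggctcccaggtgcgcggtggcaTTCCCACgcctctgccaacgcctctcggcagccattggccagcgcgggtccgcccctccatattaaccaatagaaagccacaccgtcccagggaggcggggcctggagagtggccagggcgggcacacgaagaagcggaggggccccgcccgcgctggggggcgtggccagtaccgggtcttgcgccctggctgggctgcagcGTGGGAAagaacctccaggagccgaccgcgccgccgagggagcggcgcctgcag
The motifs searched on both strands were GTGGGAA for RBPJ, TTGCNNAA for C/EBP and CACGTG for the E-box that HES and HEY proteins can bind. Hey2 held the RBPJ motif on both strands, at -207 on the opposite strand and at -4 on its own strand relative to the start. No other match to the 3 motifs was found in the 7 windows. Among 32851 windows of the same length the RBPJ motif was present in 6.38%, the C/EBP motif in 10.8% and the E-box in 7.15%. G and C made up 86% of the Jag2 window and 72% of the Hey2 window.

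The libraries held 24839139 to 33522082 counts assigned to genes, so that 3 counts, taken as the detection floor, stood for 0.0879 to 0.122 counts per 1000000 (CPM, scaled with TMM factors over the 9 libraries). The floor covers counting error only, whereas the intervals of fold changes also take in the spread between libraries. Correlation of log2 CPM between libraries of a group was 0.988 to 0.994 in EV, 0.975 to 0.984 in LAP and 0.966 to 0.976 in LIP. The lowest values in LIP were those of the third library (0.970 and 0.966), and the differences that moved most with it are also given without it. Reads assigned to Cebpb ran from 25.2 to 30.5 CPM in EV, 25.5 to 33.2 in LAP and 28.3 to 33.3 in LIP. Since all cells carried the knockout and the plasmids held rat sequence, these overlapping levels did not check the group labels. The 10 fibroblast markers were all detected, at a summed 35259 to 39728 CPM in EV, 29442 to 43170 in LAP and 17012 to 30253 in LIP. Their levels were uneven. Group means were 7440 to 9012 CPM for Fn1, 8.62 to 18.6 for Dcn, 0.937 to 2.41 for Pdgfra and 0.326 to 1.06 for Pdgfrb. Markers of other cells that use Notch were low or mixed. Haematopoietic markers summed to 3.69 to 6.09 CPM in EV, 5.43 to 7.47 in LAP and 5.10 to 9.66 in LIP, led by Cd68, with Ptprc at 0 counts in every library. Mural and smooth muscle markers summed to 1688 to 2752 CPM in EV, 1042 to 3451 in LAP and 764 to 2657 in LIP, led by Acta2, with Myh11 at 0. Epithelial markers summed to 577 to 706 CPM in EV, 485 to 986 in LAP and 587 to 1004 in LIP. Group means were 450 to 627 CPM for Krt8 and 135 to 198 for Krt14 (lowest in LIP). They were 1.52 to 3.26 for Cdh1, 0.877 to 1.74 for Krt18, 0.121 to 0.314 for Epcam and 0.0462 to 0.0637 for Krt5. Cldn4 had at most 3 counts in every library. In bulk RNA, fewer cells that express a gene cannot be told apart from less RNA per cell.

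Of the 10 Notch genes, 9 were above the floor in every library. Jag2 was higher in LIP than in EV by 1.73-fold, with every LIP library above every EV library, and differed by 1.07-fold between LAP and EV. In the other 8 measured genes the LIP and EV libraries overlapped. With edgeR's quasi-likelihood test and Benjamini-Hochberg adjustment over all genes, 0 of the 10 passed an adjusted p of 0.05 in LIP against EV, where 0.396% of 18203 genes did. At an unadjusted p under 0.05, 1 of the 10 passed (Jag2) against 11.0% of all genes in either direction and 4.23% in the direction higher in LIP. Among the 10, DESeq2 called Jag2 alone, and it called 1.76% of all genes. The same gene was the 1 member whose groups did not overlap, beside 15.6% of all genes in either direction and 6.80% higher in LIP. The median log2 fold change of the 8 members averaging 20 counts or more was 0.15 and that of all such genes 0.01.

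In LAP against EV, 0 of the 10 passed with edgeR, 0 at an unadjusted p under 0.05 and 0 with DESeq2, where 0.0606% of 18156 genes passed the adjusted threshold and 3.27% the unadjusted one. No member had groups that did not overlap, beside 7.57% of all genes. The median of the 8 members averaging 20 counts or more was -0.09 and that of all such genes 0.00182. In LIP against LAP, the direct comparison of the isoforms, 0 of the 10 passed the adjusted threshold with edgeR and 0 with DESeq2 (1.05% of 18166 genes with edgeR). In the same fit, 1 member passed at an unadjusted p under 0.05 (9.28% of all genes, 3.30% higher in LIP) and 1 did not overlap (12.8% of all genes, 5.91% higher in LIP), in both cases Jag2. With libraries paired by replicate number, edgeR called Jag2 (adjusted p = 0.00589) and 6.51% of all genes. Without the pairing, the median of the 8 members averaging 20 counts or more was 0.28 in this comparison and that of all such genes 0.00445. LIP against EV and LAP against EV share the EV libraries, and LIP against LAP uses the same libraries again, so the 3 comparisons are not independent.

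**Figure D1:**
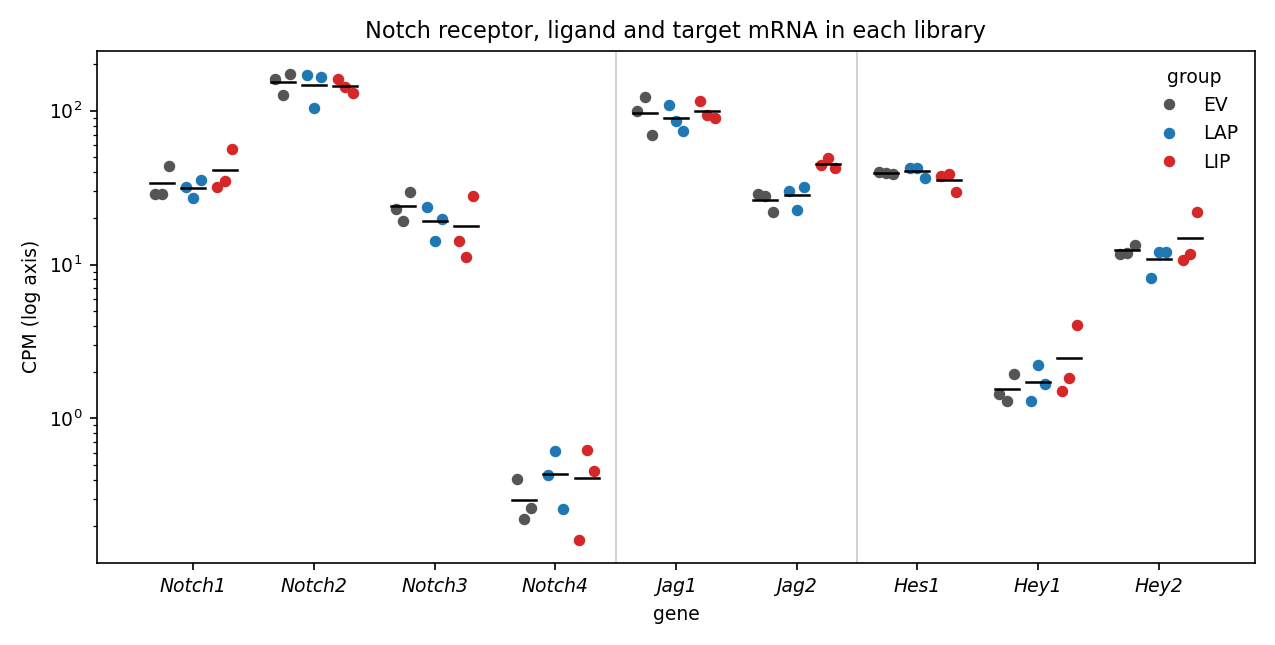
Level of 9 Notch genes in CPM (log axis) in each of the 3 EV, 3 LAP and 3 LIP libraries (points), with the group mean as a bar and thin lines between receptors, ligands and targets; Heyl, with 0 to 3 counts a library, is not drawn. The LIP points of Jag2 lie at 42.1 to 49.0 CPM, above the 21.8 to 28.7 of EV and the 22.8 to 32.0 of LAP, while the groups overlap in the other genes.

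**Figure D2:**
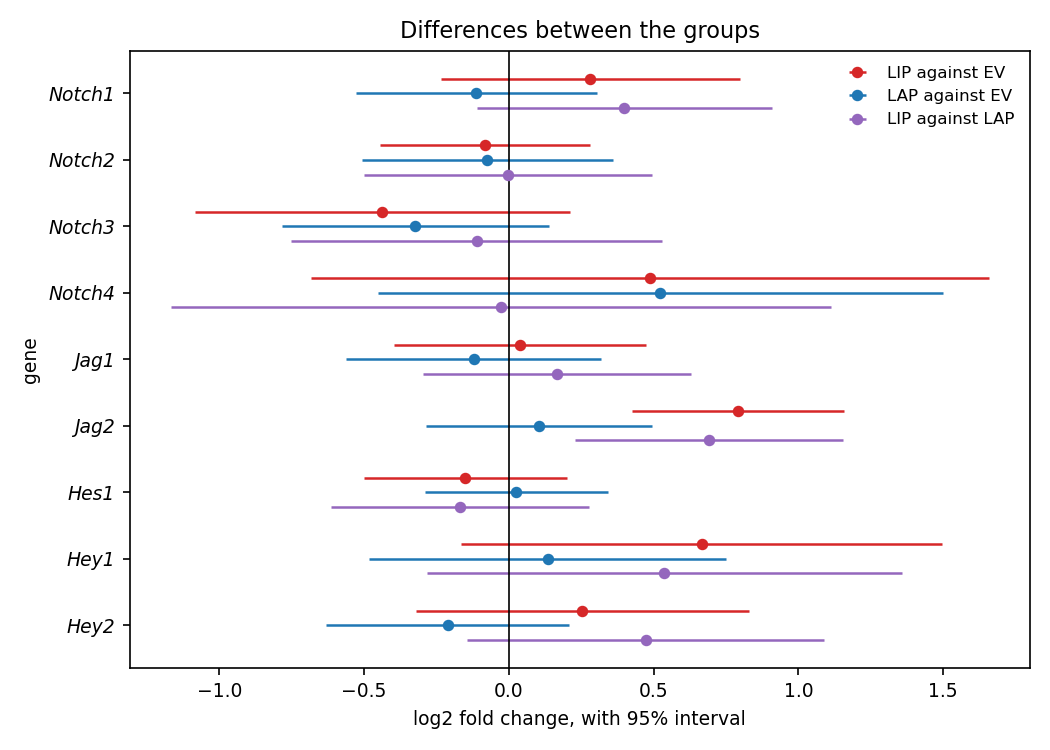
Log2 fold change of 9 Notch genes (points) with 95% intervals (lines) in the 3 comparisons, from edgeR fits of 3 against 3 libraries. The Jag2 intervals lie above 0 in LIP against EV (0.43 to 1.16) and LIP against LAP (0.23 to 1.15), and the others span 0.

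Levels of different genes were compared as CPM per kb of exon, on the mean over the 9 libraries. Hes1 was the highest at 26.1 ± 2.56 (SD, n = 9), followed by Jag1 at 17.0 ± 3.17 and Notch2 at 14.1 ± 2.25. Jag2 (6.51 ± 1.91), Hey2 (4.96 ± 1.49), Notch1 (3.73 ± 0.980) and Notch3 (2.53 ± 0.790) formed the middle. The lowest were Hey1 (0.790 ± 0.353), Notch4 (0.0578 ± 0.0252) and Heyl (0.00709 ± 0.00816). Ranges over libraries did not overlap between Notch2 and Jag2, Hey1 and Notch4, or Notch4 and Heyl, and did between all other neighbours in this order. Even so, Hes1 was above Jag1, Notch1 above Notch3 and Notch3 above Hey1 in 9 of 9 libraries. Jag1 was above Notch2 in 7 of 9 libraries, Jag2 above Hey2 in 6 and Hey2 above Notch1 in 8.

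Among the receptors, Notch2 (chr3:98013538-98150367, plus strand) made up most of the receptor mRNA. Its level was 160, 127 and 173 CPM in the EV libraries, 170, 104 and 166 in LAP and 162, 142 and 131 in LIP. The 3 groups overlapped, with the lowest value in the second LAP library. The log2 difference of LIP from EV was -0.08 (SE 0.167, adjusted p = 0.884), with an interval of -0.44 to 0.28, and that of LAP from EV was -0.07 (SE 0.203, adjusted p = 0.978). LIP and LAP means differed by 0.999-fold, with an interval of 0.707 to 1.41. Exons of Notch2 overlap those of Gm42820 on the same strand, which is not a row of the table.

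Notch1 (chr2:26457902-26503822, minus strand), the receptor first known from T cell leukaemia, was at 28.6, 28.9 and 43.8 CPM in EV, 31.9, 26.9 and 35.5 in LAP and 32.1, 34.7 and 56.3 in LIP. The third library was the highest of its group in EV, LAP and LIP alike, and the groups overlapped. The log2 difference was 0.28 in LIP against EV (SE 0.238, adjusted p = 0.706), -0.11 in LAP against EV (SE 0.194, adjusted p = 0.971) and 0.40 in LIP against LAP (SE 0.244, adjusted p = 0.700). Without the third LIP library the difference of LIP from EV was -0.00480 (adjusted p = 0.992) and that from LAP 0.11 (adjusted p = 0.939). Exons of Notch1 overlap those of 0610009E02Rik and Gm13568 on the opposite strand, and the library kit does not mark strand, so reads of the pairs cannot be told apart.

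Notch3 (chr17:32120820-32166896, minus strand), a receptor best known from vascular smooth muscle and pericytes, was at 23.0, 19.2 and 29.7 CPM in EV, 23.6, 14.2 and 19.9 in LAP and 14.1, 11.2 and 27.7 in LIP. The first and second LIP libraries were below every EV library, and the third was above all but 1 of the other libraries. The log2 difference of LIP from EV was -0.44 (SE 0.298, adjusted p = 0.657), with an interval of -1.08 to 0.21. Without the third LIP library it was -0.91 (SE 0.216, adjusted p = 0.0410), so that 1 library decided the call. That fit called 2.06% of all genes, and the fit with that library 0.396%. The differences were -0.32 in LAP against EV (adjusted p = 0.918) and -0.11 in LIP against LAP (adjusted p = 0.934), the latter -0.59 (adjusted p = 0.431) without that library. Exons of Notch3 overlap those of Gm17276 on the opposite strand.

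Notch4 (chr17:34564286-34588543, plus strand), which is mainly an endothelial receptor, was barely detected, with 13, 6 and 9 counts in EV, 14, 17 and 7 in LAP and 4, 19 and 14 in LIP. The groups overlapped throughout. The log2 difference of LIP from EV was 0.49, with a wide interval of -0.68 to 1.66, or 0.623-fold to 3.16-fold. In LAP against EV it was 0.52 (interval -0.45 to 1.50) and in LIP against LAP -0.03 (interval -1.17 to 1.11). The endothelial markers were likewise low, at a summed 3.10 to 3.79 CPM in EV, 2.59 to 3.76 in LAP and 1.74 to 3.02 in LIP, with Pecam1 and Emcn at 0 in every library and group means of 1.57 to 2.16 CPM for Kdr.

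Summed per kb of exon, the 4 receptors came to 21.2 ± 3.63 CPM in EV, 19.7 ± 4.47 in LAP and 20.4 ± 1.62 in LIP (mean ± SD, n = 3 each). The exact permutation p-values, two-sided and no lower than 0.1 for 3 against 3, were 0.9 for LIP against EV, 0.7 for LAP against EV and 1 for LIP against LAP. Notch2 held 66.3 to 72.0% of this sum in EV and 56.9 to 74.9% in LIP, with the lowest share in the third LIP library.

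**Figure D3:**
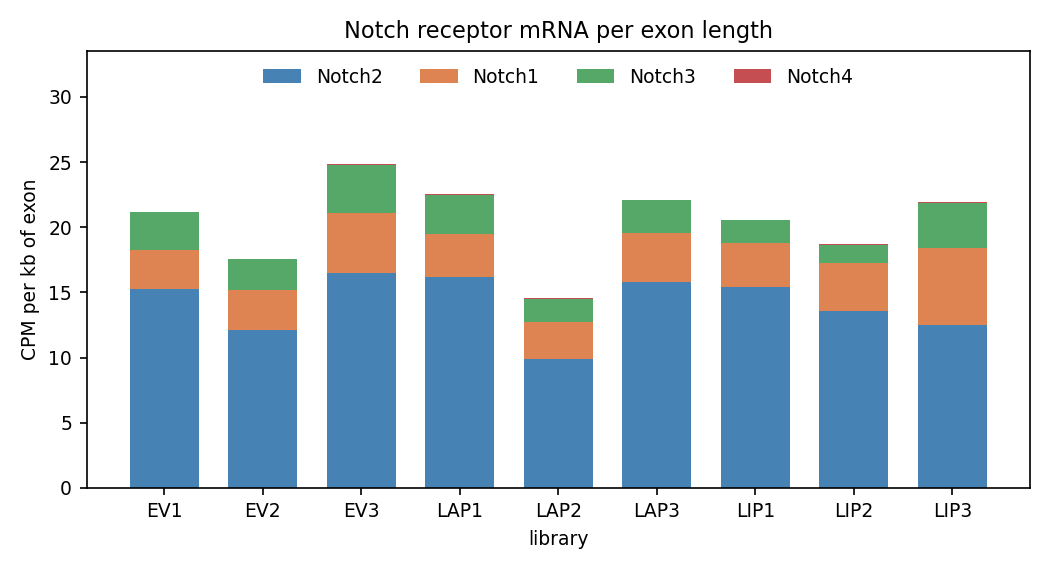
Notch receptor mRNA in each library in CPM per kb of exon, stacked by receptor (colours), 3 libraries per group. Notch2 is the largest segment in every bar and Notch4 is at most a thin line at the top.

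The ligand Jag1 (chr2:137081451-137116520, minus strand), the Jagged protein that is essential for vascular development, was at 99.4, 122 and 70.0 CPM in EV, 109, 86.2 and 74.3 in LAP and 116, 93.9 and 89.7 in LIP. All LIP values lay within the EV range. The log2 difference was 0.04 in LIP against EV (SE 0.201, adjusted p = 0.974), -0.12 in LAP against EV (SE 0.206, adjusted p = 0.971) and 0.17 in LIP against LAP (SE 0.221, adjusted p = 0.837). The interval of the first, -0.40 to 0.47, leaves room for changes of up to 1.39-fold.

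Jag2 (chr12:112907803-112929812, minus strand), the second Jagged ligand, whose window is printed above, was at 28.7, 27.9 and 21.8 CPM in EV, 30.1, 22.8 and 32.0 in LAP and 44.7, 49.0 and 42.1 in LIP. The LIP libraries were the 3 highest of the 9, while LAP and EV overlapped. Group means were 26.2 ± 3.78 CPM in EV, 28.3 ± 4.86 in LAP and 45.3 ± 3.49 in LIP (SD, n = 3 each).

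LIP exceeded EV in Jag2 by 0.79 on the log2 scale (SE 0.168, interval 0.43 to 1.16), 1.73-fold with an interval of 1.34 to 2.23. The adjusted p of edgeR's quasi-likelihood test was 0.0754, above the threshold of 0.05, and the exact permutation p was 0.1, the smallest that 3 against 3 allows. The call depended on the setting, as Jag2 passed with DESeq2 (log2 difference 0.80, adjusted p = 0.00320) and without the third LIP library (0.85, adjusted p = 0.0217). These settings called 1.76% and 2.06% of all genes, beside 0.396% in the main fit. Jag2 also passed with the replicate number as a block (0.80, adjusted p = 0.0171), a fit that called 2.57% of all genes. The log2 difference of Jag2 was 0.68 to 0.87 when each library was left out in turn. In LIP against LAP the log2 difference was 0.69 (SE 0.221, interval 0.23 to 1.15), or 1.62-fold, with an adjusted p of 0.201 and an exact permutation p of 0.1. With the replicate number as a block, which paired the libraries in this comparison, it was 0.71 with an adjusted p of 0.00589. The block called 6.51% of all genes there, beside 1.05% without it. LAP and EV differed in Jag2 by 0.10 (SE 0.183, interval -0.29 to 0.50, adjusted p = 0.971). The summed fibroblast markers were lower in every LIP library than in every EV library, with 6 of 10 lower at an unadjusted p under 0.05 (11.0% of all genes passed in either direction) and 0 past the adjusted threshold (smallest adjusted p = 0.138), and their part in the Jag2 difference was not tested.

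Set against Jag1 per kb of exon, a ratio chosen after the counts were known, Jag2 stood at 25.1 to 34.3% of Jag1 in EV, 29.0 to 47.3% in LAP and 42.5 to 57.4% in LIP. The LIP range lay above that of EV and overlapped that of LAP. The means were 30.4 ± 4.72%, 35.6 ± 10.2% and 50.5 ± 7.50% (SD, n = 3 each), with two-sided exact permutation p-values of 0.1 for LIP against EV, 0.7 for LAP against EV and 0.2 for LIP against LAP. The sum of both ligands per kb was 22.4 ± 5.30 CPM in EV, 21.6 ± 3.29 in LAP and 26.6 ± 2.57 in LIP, with exact permutation p-values of 0.3, 0.9 and 0.2 in the same order.

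**Figure D4:**
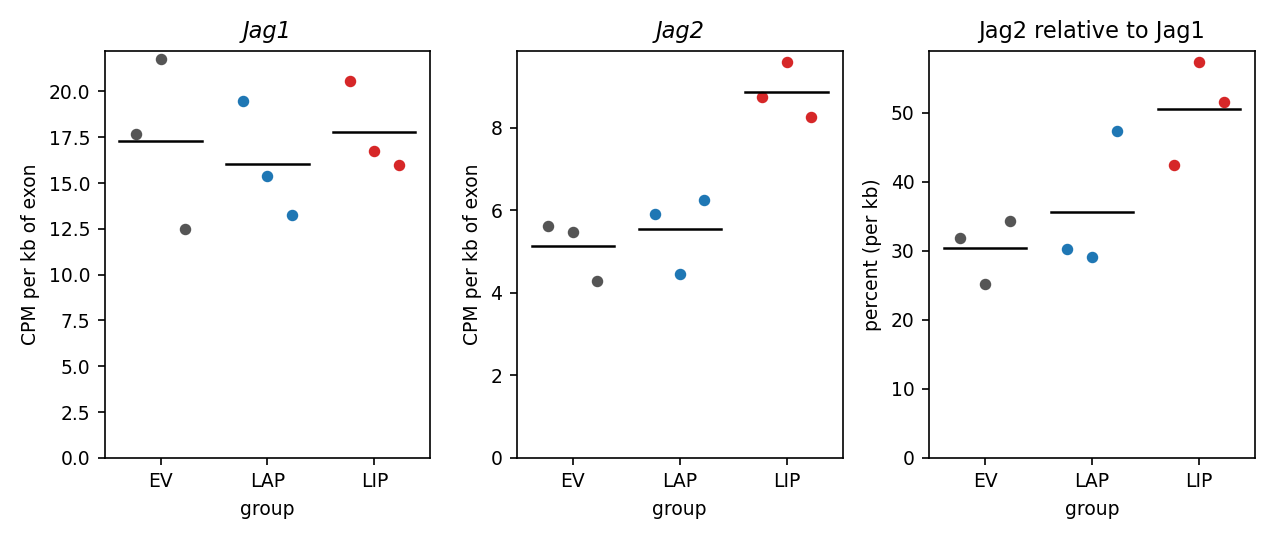
Jag1 and Jag2 in CPM per kb of exon and Jag2 as a percentage of Jag1 (axes from 0) in the 3 libraries (points) of each group, with the group mean as a bar. Jag1 overlaps between groups, and Jag2 reaches 42.5 to 57.4% of Jag1 in LIP against 25.1 to 34.3% in EV.

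Of the target genes, Hes1 (chr16:30065357-30067796, plus strand), the repressor most often read as a sign of Notch activity, was at 40.0, 39.3 and 38.5 CPM in EV, 42.1, 42.4 and 36.3 in LAP and 37.8, 38.5 and 29.7 in LIP. The EV libraries lay within a narrow range and the third LIP library was the lowest of the 9. The log2 difference was -0.15 in LIP against EV (SE 0.162, adjusted p = 0.715), 0.03 in LAP against EV (SE 0.148, adjusted p = 0.993) and -0.17 in LIP against LAP (SE 0.213, adjusted p = 0.822). In LIP against EV the interval, -0.50 to 0.20, had an upper end of 1.15-fold. Without the third LIP library the differences were -0.0306 from EV (adjusted p = 0.945) and -0.0565 from LAP (adjusted p = 0.965).

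Hey1 (chr3:8663359-8667038, minus strand), a HES-related repressor, was at 1.43, 1.29 and 1.93 CPM in EV, 1.30, 2.23 and 1.66 in LAP and 1.51, 1.83 and 4.04 in LIP. The first and second LIP libraries lay inside the EV range and the third was the highest of the 9. The log2 difference of LIP from EV was 0.67 (SE 0.383, adjusted p = 0.578), and without the third LIP library it was 0.12 (adjusted p = 0.893). It was 0.13 in LAP against EV (adjusted p = 0.971) and 0.54 in LIP against LAP (adjusted p = 0.763), the latter -0.0165 (adjusted p = 0.993) without that library.

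Hey2 (chr10:30832359-30842783, minus strand), the related repressor known from heart and vessel development, followed the same order in LIP, with 10.7, 11.6 and 22.0 CPM against 11.8, 12.0 and 13.4 in EV and 8.20, 12.1 and 12.1 in LAP. Again the third LIP library alone was above all EV libraries, whereas the other two were below them. The log2 difference of LIP from EV was 0.25 (SE 0.265, adjusted p = 0.709) and turned to -0.14 (adjusted p = 0.743) without that library. It was -0.21 in LAP against EV (adjusted p = 0.918) and 0.47 in LIP against LAP (adjusted p = 0.711), the latter 0.0689 (adjusted p = 0.963) without it. The third LIP library was thus the highest of the 9 in Notch1, Hey1 and Hey2 and the lowest in Hes1, and what set it apart was not tested.

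Heyl (chr4:123233556-123249870, plus strand), the third HEY gene, had 0, 0 and 3 counts in EV, 3, 1 and 0 in LAP and 1, 0 and 1 in LIP. All libraries were at or under the floor, so no fold is given. How far counting lowered genes such as Heyl and Notch4 was not tested. Among the other pathway genes, Myc and Ctbp1, which most cultured cells express, were listed at 0 in every library, so that a 0 in this table need not mean that no mRNA was present.

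Around the 10 genes, 76 other genes of the pathway were in the table and 72 could be tested in LIP against EV. Of these 0 were higher and 1 was lower past the adjusted threshold (Mfap5), where 0.396% of all genes passed, and 2 were higher and 4 lower at an unadjusted p under 0.05, where 11.0% of all genes passed. Their median log2 difference was -0.05, against 0.04 for all genes. The groups did not overlap in 4 genes higher and 10 lower in LIP, beside 15.6% of all genes in either direction. These counts were 3 and 6 in LAP against EV (7.57% of all genes) and 2 and 2 in LIP against LAP (12.8%). In LAP against EV, 0 of 71 passed with edgeR and 0 with DESeq2, and 3 were lower at an unadjusted p under 0.05 (Neurl1b, Dtx2 and Aak1), beside 0.0606% and 3.27% of all genes. In LIP against LAP 1 of 72 passed, again Mfap5, with 3 higher and 5 lower at an unadjusted p under 0.05, beside 1.05% and 9.28% of all genes. DESeq2 likewise called Mfap5 alone among them in LIP against EV and in LIP against LAP. With the replicate number as a block this count was 4, Mfap5, Mfap2 and Poglut1 lower and Neurl1b higher, while the block called 6.51% of all genes. By contrast, 7 of the 76, among them the target Hes5, had at most 3 counts in every library.

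**Figure D5:**
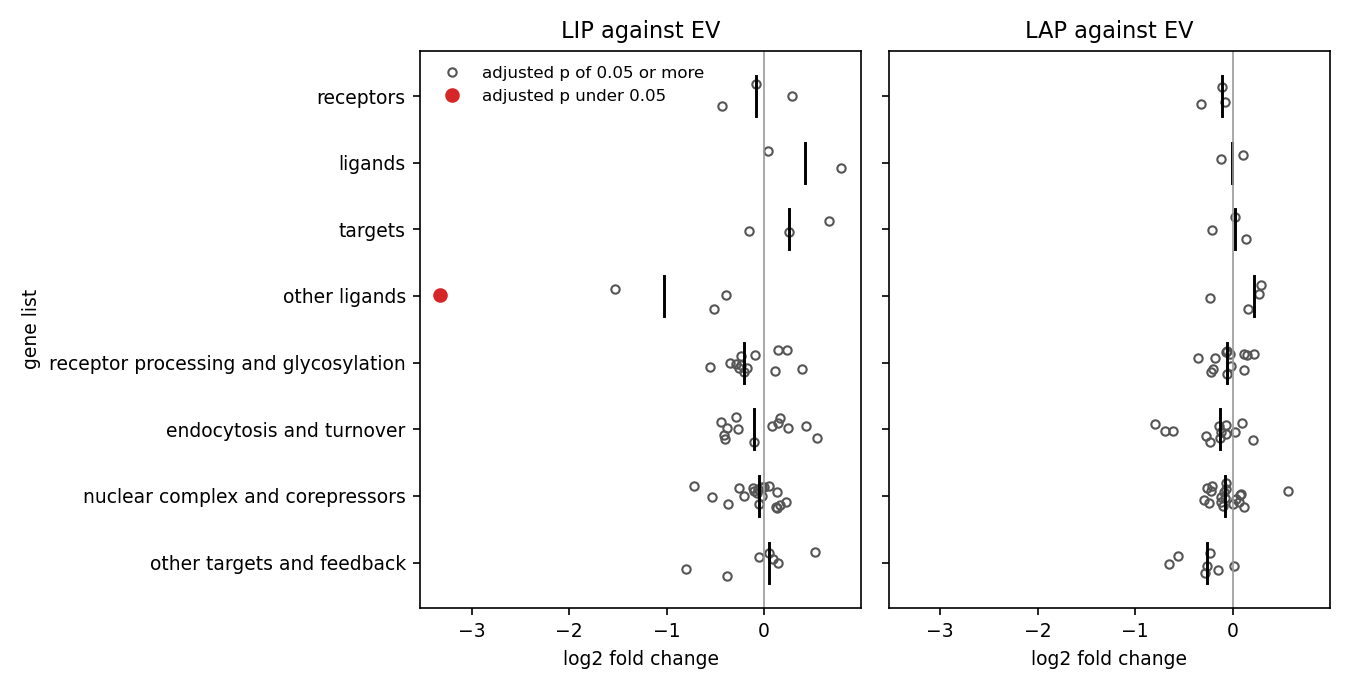
Log2 fold change of the pathway genes that averaged 20 counts or more a library (circles; filled, adjusted p under 0.05) by list in LIP against EV and LAP against EV, with a bar at the median of the circles drawn. Mfap5 is the filled point at -3.32 in LIP against EV, and most others lie within 1 log2 unit of 0.

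Among the other ligands, the call rested on Mfap5, a microfibril protein of the extracellular matrix that has also been described as a Notch pathway ligand. It was at 2.05, 1.59 and 3.13 CPM in EV, 2.37, 2.84 and 2.44 in LAP and 0.286, 0.328 and 0.0646 in LIP, the last from 7, 10 and 2 counts. Every LIP library was below every EV and LAP library. The log2 difference was -3.32 in LIP against EV (SE 0.494, adjusted p = 0.0152), -3.47 in LIP against LAP (SE 0.475, adjusted p = 0.00168) and 0.16 in LAP against EV (SE 0.274, adjusted p = 0.971). With a filter on low counts the adjusted p was 0.117 in LIP against EV and 0.0869 in LIP against LAP. The related Mfap2 was at 0.615 to 1.09 CPM in EV, 0.407 to 1.73 in LAP and 0.0646 to 0.449 in LIP, with a log2 difference of -1.53 from EV (SE 0.547, adjusted p = 0.314) and of -1.78 from LAP (adjusted p = 0.241, and 0.00540 with the block). Dlk2, a membrane protein related to the Delta-like ligands, was at 17.0 to 28.0 CPM in EV and 7.95 to 21.7 in LIP, a log2 difference of -0.52 (adjusted p = 0.617), or -0.17 (adjusted p = 0.734) without the third LIP library.

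Of the 15 receptor processing and glycosylation genes, 0 passed with edgeR in any of the 3 comparisons without the block, and 1, 0 and 1 had an unadjusted p under 0.05 in LIP against EV, LAP against EV and LIP against LAP, beside 11.0, 3.27 and 9.28% of all genes. Poglut1, which adds O-glucose to the extracellular repeats of Notch, was at 98.0, 111 and 99.1 CPM in EV, 106, 152 and 103 in LAP and 87.3, 78.4 and 76.2 in LIP. Its LIP libraries were the 3 lowest of the 9. The log2 difference was -0.35 in LIP against EV (SE 0.146, adjusted p = 0.410) and -0.55 in LIP against LAP (SE 0.217, adjusted p = 0.369), where the block gave -0.54 with an adjusted p of 0.0455. Pofut1, which adds O-fucose, differed by -0.26 between LIP and EV (adjusted p = 0.611). Lfng, a Fringe enzyme that extends O-fucose, differed by 0.14 (adjusted p = 0.815), by -0.23 in LAP against EV (adjusted p = 0.918) and by 0.37 in LIP against LAP (adjusted p = 0.708).

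In the endocytosis and turnover list, 0 of 17 genes passed with edgeR in any comparison without the block, and 1, 3 and 2 had an unadjusted p under 0.05 in the same order, beside the same shares of all genes. Neurl1b, an E3 ubiquitin ligase of the Neuralized family that acts on Notch ligands, was at 6.75, 6.49 and 9.17 CPM in EV, 3.64, 3.81 and 5.59 in LAP and 4.98, 6.85 and 14.8 in LIP. Every LAP library was below every EV library, and the third LIP library stood above the rest. The log2 difference was -0.79 in LAP against EV (SE 0.237, adjusted p = 0.918) and 1.04 in LIP against LAP (SE 0.362, adjusted p = 0.271). The block gave -0.80 (adjusted p = 0.0631) and 0.93 (adjusted p = 0.00504) in the same order. Without the third LIP library the unblocked difference of LIP from LAP was 0.47 (adjusted p = 0.730). Its relative Neurl3 was at 8.37, 14.9 and 14.7 CPM in EV and 15.7, 22.3 and 17.4 in LIP, a log2 difference of 0.54 (adjusted p = 0.451). Dtx3, of the Deltex family, differed by 0.42 (adjusted p = 0.590), with 108 CPM in the second LIP library and 53.6 and 56.0 in the others.

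Neither the nuclear complex and corepressors (20 tested in LIP against EV) nor the other targets and feedback genes (13 tested) had a gene past the adjusted threshold, and 2 genes in the former and 0 in the latter had an unadjusted p under 0.05, beside 11.0% of all genes. Maml3, a Mastermind-like coactivator, was at 6.07, 4.54 and 5.30 CPM in EV and 4.04, 3.21 and 2.42 in LIP. Its groups did not overlap, as in 15.6% of all genes, and its log2 difference was -0.72 (SE 0.268, adjusted p = 0.332). The histone deacetylase Hdac1 differed by -0.26 (adjusted p = 0.656), and the corepressor Tle2 by -0.37 between LIP and EV (adjusted p = 0.734), 0.57 between LAP and EV (adjusted p = 0.918) and -0.93 between LIP and LAP (adjusted p = 0.461). Ccnd1, which encodes cyclin D1, differed by -0.38 between LIP and EV (adjusted p = 0.641), and Bhlhe41, a repressor of the circadian clock, by -0.80 (adjusted p = 0.615). Nrarp, a feedback inhibitor that Notch switches on, was at 0.809, 1.62 and 0.439 CPM in EV, 0.524, 0.862 and 0.555 in LAP and 0.735, 1.80 and 1.52 in LIP. Its groups overlapped, with log2 differences of 0.52 between LIP and EV (adjusted p = 0.706) and 1.09 between LIP and LAP (SE 0.428, adjusted p = 0.370).

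The genes whose pattern was most like that of Jag2 over the 9 libraries, by Pearson's r of log2 CPM among 10252 genes, were Akap12 (r = 0.962), Pard6b (0.954) and Hnrnpa1 (0.944). These correlations are descriptions of the same 9 libraries from 3 groups. Akap12, a scaffold for signalling kinases, was at 359 to 522 CPM in EV, 317 to 479 in LAP and 650 to 749 in LIP, and Pard6b, a cell polarity protein, at 95.5 to 120 in EV, 87.5 to 112 in LAP and 143 to 168 in LIP. In both, as in Jag2, the 3 LIP libraries were the highest of the 9. Since the genes were picked for following Jag2 over these libraries, their group differences are no further evidence and no test of them is given. Hnrnpa1, an RNA-binding protein, was at 10.6 to 12.2 CPM in EV, 9.02 to 13.7 in LAP and 17.1 to 17.9 in LIP, and its values are uncertain, as near-identical copies of the gene could share its reads, which was not measured.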

How the data were processed

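RNA was sequenced in 9 libraries of Cebpb-ko MEFs, 3 each with EV, LAP or LIP. The authors deposited whole-number counts of reads per gene, which were used as deposited. Per the labels and the study's methods these came from single-end reads of libraries made with a kit that does not mark strand, with bcl2fastq 1.8.3, TopHat 1.4.1 and HTSeq 0.5.4 on mm10 with a RefSeq annotation (the submitters' notes also list GRCh38). HTSeq's strand and multiple-alignment settings are not given in the sources used here, and reads shared by near-identical genes may be lost.

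Counts were tested with edgeR 4.0.16 in R 4.3.3 (TMM, quasi-likelihood test) on the 6 libraries of each comparison, for all genes with at least 1 count, with Benjamini-Hochberg adjustment and a threshold of 0.05. Intervals are 95% intervals. CPM over 9 libraries gave levels, and CPM per kb used union exon lengths of GENCODE on GRCm38, so lengths may differ from the authors' annotation. Single values were compared by exact permutation tests (scipy 1.17.1). No column of the count table was left out.

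The 10 genes, the pathway lists and the tests were chosen with earlier results of these data known. From the pathway lists, genes past the threshold were named, and in each list the genes with the smallest p (2 in LIP against EV, 1 in each other comparison) among those averaging 20 counts or more, and the 3 genes most like Jag2. Libraries with the same number deviated together between LAP and EV (r = 0.524, 0.210 and 0.511) and between LIP and LAP (0.558, 0.413 and 0.466), so a replicate block pairs them there. Alternatives were DESeq2 1.42.0, its size factors, total counts alone, a filter on low counts, 1 model of all 9 libraries, the block, and each library left out.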

Additional observations from a re-analysis of the deposited data

Results flagged for a closer look

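Mfap5 drew attention because its difference between the isoforms was itself past the threshold. The log2 difference from EV was -3.32 in LIP and 0.16 in LAP, and the direct comparison of LIP with LAP gave -3.47 (edgeR's quasi-likelihood test, adjusted p = 0.00168). LIP libraries were lower in 3 of 3, from at most 10 counts each.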

How the results depend on the processing

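Over all genes, the 72 calls in LIP against EV became 321 with DESeq2, 36 with total counts alone, 4 with the filter on low counts and 467 with the replicate block, and 22 to 367 when each library was left out. Between LIP and EV same-numbered libraries did not deviate together throughout (r = 0.290, -0.121 and 0.231), so they share only a number there. The 11 calls in LAP against EV became 26 with DESeq2, 3 with the filter, 3 in the model of all 9 libraries and 54 with the block, and 6 to 62 without each library. The 190 calls in LIP against LAP became 113 with total counts, 2 with the filter and 1183 with the block, and 7 to 448 without each library. Of the calls in LIP against EV 83.3% were lower, and 62.7% without the third LIP library. Calls among the 10 Notch genes in LIP against EV went from 0 to 1 (Jag2) with DESeq2 and with the block (log2 0.80, adjusted p = 0.0171), and were 0 to 2 without each library. In LIP against LAP they went from 0 to 1 with the block. The 1 other pathway gene called was lost (0) with the filter in both comparisons, and with the block the count was 4 in LIP against LAP (1 to 2 without each library). Among the Notch and pathway genes named, the block changed no other call. Calls of Akap12, Pard6b and Hnrnpa1 are not given, as these genes were picked for their likeness to Jag2. Differences near 0 changed sign. In LAP against EV total counts gave -0.00751 for Hes1, -0.0120 for Neurl3 and -0.0199 for Hnrnpa1, and the block -0.00552 for the last. In LIP against LAP total counts gave 0.0633 for Notch2 and 0.0564 for Notch4, and the block 0.0327 for Notch2. The cause was not tested.

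Leaving out each library moved LIP against EV differences on the log2 scale over -0.00480 to 0.51 for Notch1, -0.19 to 0.0145 for Notch2, -0.15 to 0.24 for Jag1, -0.14 to 0.45 for Hey2, -0.0903 to 0.30 for Lfng and -0.32 to 0.54 for Neurl1b. LAP against EV moved over -0.23 to 0.12 for Notch1, -0.20 to 0.13 for Notch2, -0.31 to 0.0665 for Jag1, -0.0123 to 0.25 for Jag2, -0.0144 to 0.0909 for Hes1, -0.0780 to 0.32 for Hey1, -0.0487 to 0.47 for Mfap5, -0.34 to 0.64 for Mfap2, -0.17 to 0.0918 for Pofut1, -0.22 to 0.14 for Neurl3, -0.95 to 0.0371 for Bhlhe41, -0.91 to 0.0274 for Nrarp, -0.22 to 0.0937 for Akap12, -0.20 to 0.00393 for Pard6b and -0.14 to 0.17 for Hnrnpa1. LIP against LAP moved over -0.21 to 0.15 for Notch2, -0.59 to 0.13 for Notch3, -0.43 to 0.32 for Notch4, -0.0165 to 0.79 for Hey1, -0.54 to 0.0538 for Dlk2, -0.19 to 0.39 for Dtx3, -0.27 to 0.00266 for Hdac1, -0.64 to 0.19 for Bhlhe41 and -0.26 to 0.12 for Ccnd1. Notch4 had at most 19 counts a library and Heyl at most 3.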
